A study of Drosophila melanogaster with 13 samples.

Results

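The sites bound by Pita with a human ZAD-like domain were compared with those of wild-type Pita, both detected with the Pita antibody. The assay was ChIP-seq, the sequencing of DNA recovered with an antibody from fixed chromatin, here of whole adult Drosophila melanogaster 2 to 3 days old. All libraries were fixed with 1% formaldehyde for 15 min. The 4 libraries concerned, of 13 in the series, are 2 of the line labelled pita1attP Pitawt and 2 of the line labelled pita1attP PitaZ276. Both lines carry the pita1attP allele, and the sample titles name a FLAG tag in each. Pitawt expresses wild-type Pita. In PitaZ276 the zinc finger-associated domain is replaced by the ZAD-like domain of human ZFP276. The 1 preimmune library of the series, set against every list by the list names, carries the Pitawt genotype label. Whole flies ground together mix all tissues, so a weak peak in few cells and a weak peak in many cells cannot be told apart. Each line gave a single deposited peak list, 1195 peaks for Pitawt Pita and 492 for PitaZ276 Pita, in coordinates of genome build dm6. The depth of the libraries is unknown.

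Pita is an architectural protein with an array of C2H2 zinc fingers that bind DNA. Such proteins recruit the partner CP190 and act at insulators, the elements that keep neighbouring regulatory domains apart, among them boundaries of the bithorax complex. The ZAD at the N-terminus is a dimerization domain found in many insect zinc finger proteins.

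The shorter list held 452 of the 1195 wild-type peaks (37.8%, exact 95% interval 35.1 to 40.6), where held means an overlap of at least 1 bp. Seen from PitaZ276, 463 of 492 peaks met a wild-type peak (94.1%, 91.6 to 96.0). The list lengths alone limit the first share, since 492 peaks are 41.2% of 1195. Intervals here cover counting error only, as each line is 1 list with no spread between replicates, and no test between the lines was possible. The FLAG antibody gave PitaZ276 peaks at many more of these sites. All 452 held sites were called in the PitaZ276 FLAG list, as were 425 of the 743 sites not held (57.2%, 53.6 to 60.8). With FLAG in Pitawt, 718 of the same 743 were called (96.6%, 95.1 to 97.8). The PitaZ276 FLAG list is also longer than the PitaZ276 Pita list, with 1243 peaks against 492. Its peaks are wider, with medians of 1258 and 568.5 bp in the first of the joined lists described below. In all, 73.4% of the wild-type Pita peaks were called with FLAG in PitaZ276, and 318 were in neither PitaZ276 list.

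Both Pita lists have the layout of a test of irreproducible discovery rate (IDR), which joins a pair of peak lists and keeps only what both contain. The lowest −log10 global IDR was 1.30 in both lists. A site present in both joined lists but with a lower value would therefore be missing too. Columns 15 and 19 hold the −log10 p of each peak in the first and in the second joined list. In Pitawt Pita the first column was mostly the higher, with a median of 80.2 against 40.4, and the second exceeded it at 127 of 1195 peaks. In PitaZ276 Pita the order was the opposite and the gap wider. Its first column ran from 5.72 through a median of 16.8 to 460, and its second from 114 through 537 to 10105. The second was the higher at all 492 peaks, by a factor of 6.09 to 267 with a median of 25.5. Every peak of the shorter list reached 100 in the second column, while 366 of 492 reached 10 and 78 reached 50 in the first. The list cannot show how strong the second joined list was at sites that the first lacked. With FLAG the columns lay closer, with a median ratio of second to first of 2.05 in PitaZ276 and 1.00 in Pitawt. The FLAG lists had unlike lower limits, with a lowest −log10 global IDR of 1.31 in PitaZ276 and 2.00 in Pitawt.

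**Figure D1:**
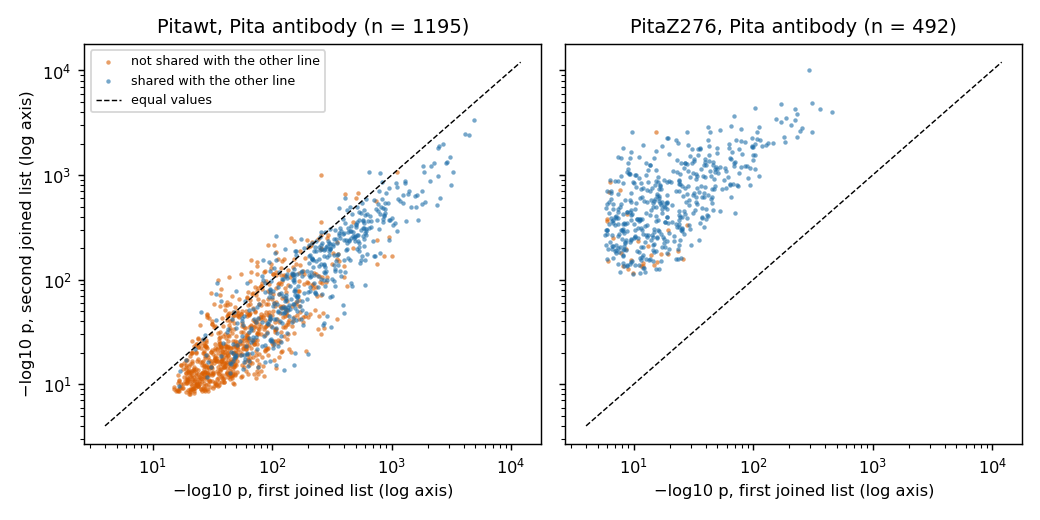
The −log10 p of each peak in the second joined list against that in the first, on log axes, for the 1195 Pitawt Pita peaks and the 492 PitaZ276 Pita peaks; blue points are shared between the lines and orange points are not. The wild-type peaks lie mostly below the line of equal values, and all 492 PitaZ276 peaks lie above it.

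The printed coordinates, summit and −log10 p of each peak are those of the first joined list, in both Pita files. For PitaZ276 this is the weaker list. Its peaks had a median width of 568.5 bp in the first joined list and 1029.5 bp in the second, whereas wild-type peaks had 790 and 512 bp. Summits of the joined lists lay within 100 bp of each other at 1156 of 1195 wild-type peaks (96.7%, 95.6 to 97.7) and at 364 of 492 PitaZ276 peaks (74.0%, 69.9 to 77.8). In PitaZ276, 26 peaks shared a second-list interval with another peak, against 0 of 1195 in the wild type. The fold enrichment, the authors' own ratio of signal to background at each peak, had a median of 12.4 in Pitawt and 5.59 in PitaZ276. It appears to go with the first joined list. The PitaZ276 peaks named by CG32982 and RpS15Aa shared a fold of 11.1 and a first value of 42.0, with 2164 and 644 in the second. Ranks and bins by fold are thus not taken as independent of the first column. Folds are used here to describe, rank and filter peaks within a list, and a difference in fold between the lists is not read as a change.

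Ranks by the joined columns were alike in the wild type and less so in PitaZ276, with a Spearman rho of 0.872 over 1195 peaks and 0.586 over 492. Across the lines the 452 held sites were ordered most alike by the second columns, with a rho of 0.897. The first columns of both lines gave 0.767. The wild-type first column against the PitaZ276 second column gave 0.797, and the wild-type second against the PitaZ276 first gave 0.602. Within PitaZ276 the pair of columns gave 0.622 at the same sites, less than the rho between the second columns of different lines. The part of wild-type peak strength in these values was not tested, and the sources used here do not tie a column to a library.

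**Figure D2:**
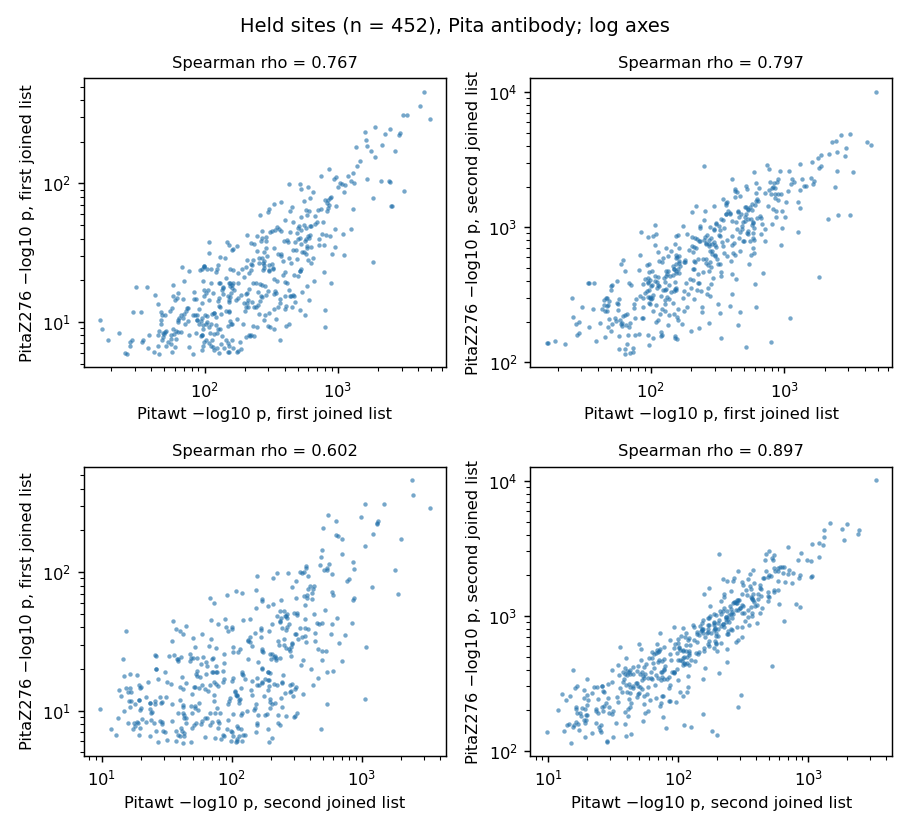
Each panel plots the −log10 p of the 452 held sites in PitaZ276 Pita against that in Pitawt Pita, on log axes, for each pairing of joined columns. The points form the narrowest band between the second columns (rho 0.897) and the widest between the wild-type second and the PitaZ276 first column (rho 0.602).

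Within bins of the second wild-type column, which sites were held moved with the first. Wild-type peaks were divided into 5 bins of 239 by the second column, and each bin was split at its median ratio of first to second. In the strongest bin, 93.3% of the peaks with the higher ratio (87.2 to 97.0) and 75.0% of those with the lower ratio (66.3 to 82.5) were held. In the next bins the shares were 66.4% against 35.8%, 40.3% against 21.7%, and 28.6% against 8.33%, and in the weakest 6.72% against 2.50% with overlapping intervals. When the bins were made by the first column, the shares from the strongest bin down were 83.2% against 91.7%, 48.7% against 56.7%, 31.1% against 28.3%, 11.8% against 16.7% and 1.68% against 8.33%, and the intervals overlapped in each bin. Within bins of the second column, then, sites with the higher ratio of first to second were more often in the PitaZ276 list. Within bins of the first column the lower ratio had the larger share in all but the middle bin. Each bin spans a range of values, so peaks within it are only roughly alike. A site between genes 1290 bp from CG13323, chosen after its values were seen, had wild-type values of 259 and 994, ranks 242 and 18, and was not held. With FLAG it was called in PitaZ276 at rank 529.

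The sites held were the strong ones of the wild type. Held peaks had a median wild-type fold of 25.6, those not held one of 9.11, and those in neither PitaZ276 list one of 7.75. Of the 239 strongest wild-type peaks, with folds of 28.6 to 320, 205 were held (85.8%, 80.7 to 89.9). The shares in the following bins were 54.8%, 31.0% and 13.0%, and in the weakest 11 of 239 were held (4.60%, 2.32 to 8.09). The 25 highest folds were all held, and so were 96 of the first 100. Among peaks not held, those called with FLAG in PitaZ276 were 26 of 34 in the strongest bin, 81 of 108 in the next and 91 of 228 in the weakest. From the strongest to the weakest bin the median PitaZ276 −log10 p of held sites was 38.6, 15.4, 11.1, 8.12 and 7.39 in the first column and 1180, 451, 296, 244 and 164 in the second. In the lower bins the first column came near the lowest value in the list, 5.72, and the lowest second value, 114, was also at a held site of the lower bins.

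**Figure D3:**
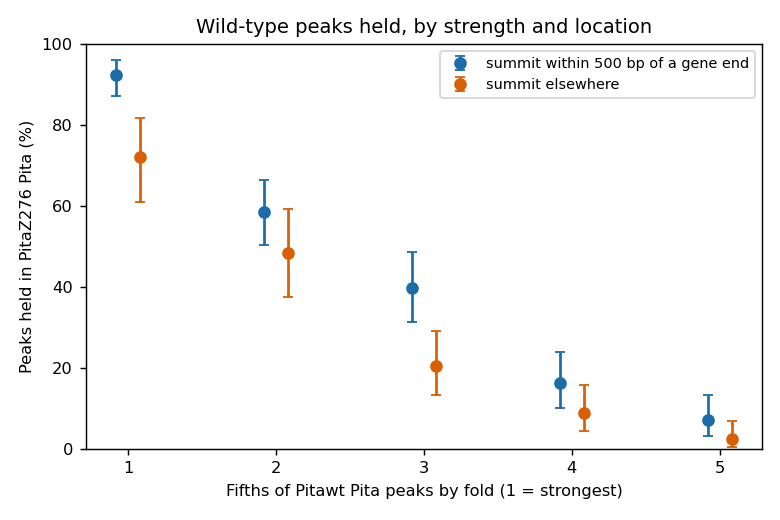
Share of Pitawt Pita peaks held in PitaZ276 Pita for 5 bins of wild-type fold, with exact 95% intervals, for summits within 500 bp of a gene end and for summits elsewhere. The share falls from 92.4% and 72.2% in the strongest bin to 7.02% and 2.44% in the weakest.

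The strongest wild-type site, 83 bp from an end of CG34130 (3R, 26187948 to 26189838) had −log10 p of 4848 and 3327 in the wild-type columns. In PitaZ276 Pita it had 293 and 10105, ranks 5 and 1 of 492. The site 162 bp from an end of Rala, a small GTPase gene (X, 3719280 to 3720697), had 4432 and 2434 in the wild type and 460 and 4027 in PitaZ276, ranks 1 and 7. At ATPsynC, which encodes a subunit of mitochondrial ATP synthase (3R, 31219287 to 31219975), the wild-type values were 4120 and 2465 and the PitaZ276 values 360 and 4292. All 3 sites lay outside gene bodies, held ranks 1 to 3 in both wild-type columns and were within the first 7 in both PitaZ276 columns.

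The other 5 of the 8 strongest sites ranked lower by the first PitaZ276 column than by the second. The site inside the Hox gene Abd-B (3R, 16969369 to 16970654), with 2447 and 1813 in the wild type, had 103 and 4372 in PitaZ276, rank 31 by the first column and rank 4 by the second. The site at sfl, which encodes a heparan sulfate N-deacetylase/N-sulfotransferase, had 2491 and 1903 in the wild type. In PitaZ276 it had 69.0 and 3630, ranks 55 and 9. At fzr, whose product activates the anaphase-promoting complex, the PitaZ276 values were 226 and 4305, ranks 10 and 5. The sites at Tmhs and inside nemy had 310 and 172 in the first PitaZ276 column, ranks 4 and 17, and 4904 and 4823 in the second, ranks 2 and 3. Their wild-type folds were 177 to 220.

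Of the 8 strongest wild-type sites missing from the PitaZ276 Pita list, 6 were called in that line with the other antibody. The first stood 256 bp from an end of CG6465 (3R, 10673953 to 10676355), rank 26 of 1195 by wild-type fold, with −log10 p of 1110 and 1062. With FLAG it was called in PitaZ276 at rank 64 of 1243, with a fold of 43.9. The next was 80 bp from an end of trx, the founding trithorax gene, which encodes a histone H3 lysine methyltransferase (3R, 14286669 to 14287762). Its wild-type values were 741 and 570, and its PitaZ276 FLAG rank was 383. CG9380 (519 and 671) and the Hox gene pb (479 and 358, summit inside the gene) were called with FLAG at ranks 358 and 383. The site inside CG7741, 846 bp from Obp47b, and that inside ctp, a dynein light chain gene, had wild-type values of 474 and 202 and of 423 and 87.4, with FLAG ranks of 693 and 664. Those near lncRNA:CR45966 (944 and 259) and inside rho-6, a rhomboid family gene (758 and 237), were called with neither antibody in PitaZ276.

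The weakest wild-type sites that were held had folds of 5.19 to 5.75. They stood at CG15544, Syn2, CG14043, CG33462 and inside Stat92E, the transcription factor gene of the JAK/STAT pathway. Their −log10 p was 16.6 to 26.3 in the first wild-type column and 9.73 to 27.0 in the second. In PitaZ276 they had 5.89 to 10.3 and 136 to 214, and all 5 were called with FLAG. Their wild-type ranks by fold were 1112 to 1164, against 26 and 50 for the missing sites at CG6465 and trx.

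Held sites lay nearer to gene ends than those not held. Summits within 500 bp of either end of a gene were 315 of 452 among held peaks (69.7%, 65.2 to 73.9) and 364 of 743 among the others (49.0%, 45.3 to 52.7). The annotation used has no strand, so starts and ends of genes are counted together. The difference lay close to the ends. Of wild-type peaks within 100 bp of an end 58.1% were held (52.5 to 63.5), and of those at 101 to 250 bp 46.6% (39.4 to 53.9). At 251 to 500 bp the share was 23.5% (17.3 to 30.7), and it was 23.1% to 30.3% at all longer distances. Summits within 500 bp of an end of 2 genes were held in 52.2% (46.6 to 57.7), those near 1 gene in 40.3% (34.8 to 45.9) and those near none in 26.3% (22.5 to 30.3). With 3 or more genes the share was 47.6% (32.0 to 63.6), from 42 peaks, and its interval overlapped those for 1 and 2 genes.

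Strength and location moved together, with median wild-type folds of 14.7 at 101 to 250 bp and 10.0 to 12.0 beyond, the median being highest within 100 bp. In the strongest bin, 92.4% of peaks near an end were held (87.1 to 96.0) and 72.2% of the others (60.9 to 81.7). In the middle bin the shares were 39.7% (31.3 to 48.6) and 20.4% (13.2 to 29.2). In the other 3 bins the intervals overlapped, at 58.6% against 48.3%, 16.1% against 8.85%, and 7.02% against 2.44%. The median ratio of the first to the second wild-type column was 1.86 near an end, 2.24 inside genes and 1.78 between genes. Its part in the difference was not tested.

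**Figure D4:**
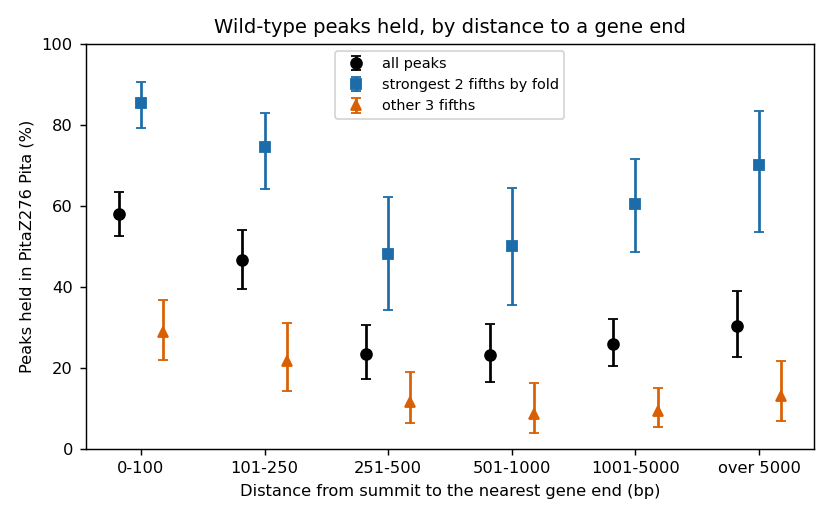
Share of Pitawt Pita peaks held in PitaZ276 Pita against the distance from the summit to the nearest gene end, with exact 95% intervals, for all peaks, for the 2 strongest bins of wild-type fold and for the other 3. Over all peaks the share is 58.1% within 100 bp and 23.5% at 251 to 500 bp, and in the 2 strongest bins it is 85.5% and 48.1%, with 70.0% beyond 5000 bp.

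On the X chromosome 113 of 236 wild-type peaks were held (47.9%, 41.4 to 54.5), against 336 of 953 on the autosomes (35.3%, 32.2 to 38.4). The long autosomal arms ranged from 29.3% on 2R to 38.4% on 2L. X peaks were somewhat stronger in the wild type, with a median fold of 14.1 against 12.2. Within each bin of fold the intervals of X and autosomes overlapped, with 92.2% against 83.2% in the strongest bin and 31.9% against 30.7% in the middle one. With FLAG, PitaZ276 peaks were called at 78.0% of the X sites (72.1 to 83.1) and at 72.1% of the autosomal ones (69.1 to 74.9).

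Of 17684 genes, 1062 had an end within 500 bp of a wild-type Pita summit (6.01%), and for 519 of the 1062 (48.9%) such a peak was held. The lists below are read against these shares, with no test of enrichment. A gene counts in a list by its own end, though the end of another gene may be nearer to the summit. Of 92 genes of cytosolic ribosomal proteins 20 were reached in the wild type, and at 12 of the 20 the peak was held. Held examples were RpL22 with wild-type −log10 p of 1004 and 388 and PitaZ276 values of 93.7 and 1180, and RpL17 with 522 and 269 against 98.7 and 1908. RpS15Aa, with 594 and 277 in the wild type, had 42.0 and 644 in PitaZ276. The 8 genes whose peak was not held were RpL27A, RpL3, RpS10b, RpS27, RpS23, RpS26, RpS16 and RpL41, with wild-type folds of 6.57 to 15.8. All 8 were called with FLAG in PitaZ276, as were 389 of all 543 genes reached but not held (71.6%). The held ribosomal protein genes had wild-type folds of 14.7 to 67.1, so the groups overlapped only at RpL37A, RpL27A and RpL3. The RpL27A peak is also that of mRpL27, a mitochondrial ribosomal protein gene counted below as not held.

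Of 7 genes of oxidative phosphorylation reached in the wild type, 6 were held, namely ATPsynC, UQCR-Q of complex III, the complex I subunit genes ND-B8 and ND-B14.5B, and ATPsynD and ATPsynF of ATP synthase. Their PitaZ276 −log10 p was 7.76 to 360 in the first column and 494 to 4292 in the second. The complex I gene ND-15, with wild-type values of 30.7 and 30.0, was not held. Among mitochondrial ribosomal proteins 4 of 6 were held, and mRpL13 showed how the columns part. It had 802 and 1051 in the wild type and 12.1 and 1955 in PitaZ276. The genes reached in these lists lay at stronger wild-type peaks, with median folds of 22.7 for cytosolic ribosomal proteins, 27.7 for mitochondrial ones and 30.7 for oxidative phosphorylation, against 14.3 over all genes reached. The part of this strength in the counts held was not tested.

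Other lists were small. Of the translation factor genes reached, 4 of 8 were held (eIF4G2, eIF1, eEF2 and eIF2Bepsilon), and eIF4E1, eIF4A, eIF3c and eIF4H1 were not. Of the proteasome genes 2 of 6 were held, Prosbeta2R2 and Rpt4. Among 295 tRNA genes 20 were reached and 5 of the 20 were held. Neighbouring tRNA genes share peaks, as the 2 Ser-TGA genes held and the pair of Phe-GAA genes not held do. The median wild-type fold over the 20 was 8.17, against 14.3 over all genes reached. Of the replication origin genes Orc4 and dup, which encodes the licensing factor Cdt1, were reached and both were held. No gene of the lists of architectural proteins (19 genes) and Hox genes (8 genes) had a wild-type Pita summit within 500 bp of an end. Among 126 genes whose symbol begins with His, the one reached was HisRS, a histidyl-tRNA synthetase gene and no histone gene.

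**Figure D5:**
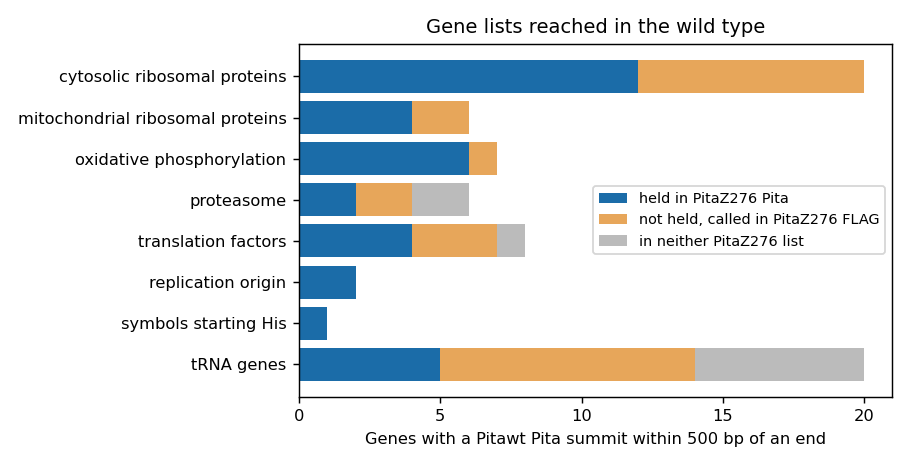
Number of genes in each list with a Pitawt Pita summit within 500 bp of an end, divided into genes held in PitaZ276 Pita, genes not held but called in PitaZ276 FLAG, and genes in neither. Of the 20 cytosolic ribosomal protein genes 12 were held and 8 were called with FLAG alone, and of the 20 tRNA genes 5 were held.

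In the interval from abd-A to Abd-B in the bithorax complex the wild-type list had 5 peaks, of which 2 were held. These were the site inside Abd-B described above and a site inside lncRNA:iab8 (3R, 16898343 to 16900045). The latter had wild-type values of 613 and 265. In PitaZ276 it was divided into 2 peaks of the first joined list, with −log10 p of 8.10 and 49.6, both joined to the same second-list peak of 1799. A wild-type peak at 16957787 to 16958098, inside Abd-B, with values of 61.4 and 44.7, was not held, though it was called with FLAG. PitaZ276 Pita had a peak beside it, from 16958479 to 16959034 (8.83 and 424), whose second-list interval met a wild-type peak. The wild-type peaks at 16843290 to 16843618 (37.9 and 17.5) and at 16868503 to 16869645 (78.0 and 59.2) were not held, and the latter was called with FLAG.

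The site 26 bp from an end of Orc4, an origin recognition complex gene, had wild-type values of 330 and 172 and PitaZ276 values of 20.4 and 859, ranks 209 and 159 of 492. The peak inside pita itself had 87.1 and 20.9 in the wild type and was not held. FLAG gave a PitaZ276 peak there with a fold of 4.64, rank 974 of 1243.

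The 29 PitaZ276 Pita peaks that met no wild-type Pita peak had a median −log10 p of 10.9 in the first joined list, from 5.98 to 27.9, against 17.8 for the other 463. In the second they ran from 117 through 179 to 2607. Of the 29, 28 met a Pitawt FLAG peak and 28 met a PitaZ276 FLAG peak. All 452 held wild-type peaks met both FLAG lists, so these counts do not set the 29 apart. When the second-list coordinates were used, 4 of the 29 met a wild-type Pita peak. The highest folds among the 29 were at crp (7.55), lncRNA:CR45921, inside Eip75B (6.16), Atg4a, inside CG4629 (5.91), Rcc1 (5.84) and CG6788 (5.18). The crp site, inside that helix-loop-helix factor gene (2L, 16282038 to 16282447), had 27.9 and 332. The CG6788 site (X, 17888197 to 17888634) had 15.5 and 2607, and its joined summits lay 822 bp apart. It was 1 of the 4 whose second-list interval met a wild-type peak.

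The sites ranked most differently by the joined columns differed in how their summits lay. The 5 PitaZ276 peaks with the largest rise from the first to the second column had joined summits 286 to 892 bp apart. They stood near BomBc3, lncRNA:CR43617, CG16964, CG11905 and CG14860, with 6.35 to 9.61 in the first column and 890.5 to 2562 in the second. Of these 5, 2 shared their second-list interval with a neighbouring peak that was stronger in the first list, so their second value is also that neighbour's. At CG11905 the neighbour (3L, 16930065 to 16931069) had 312 in the first column, rank 3, and the same 2562 in the second. At lncRNA:CR43617 it was the bithorax peak of 49.6 described above. None of the 5 with the largest fall shared a second-list interval. These, at Tasp1, Shab, CG3918, Dph2 and inside brwl, 1960 bp from Mtpalpha, had summits 1 to 28 bp apart. Their first column was 23.4 to 35.5 and their second 158 to 241.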

How the data were processed

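Peak lists were deposited by the authors, 1 for each line and antibody, and 4 of the 6 were read here. Per the submitters' processing notes, cutadapt, Bowtie2, Picard, bedtools, MACS2 and deepTools were used with build dm6, and the sources used here give no versions. The files have no header. By layout and values, column 7 was taken as the authors' fold enrichment, a ratio, and columns 8, 9, 15 and 19 as the −log10 p and −log10 q values as deposited. The global irreproducible discovery rate (IDR) is column 12, also on the −log10 scale. Each list is already joined, so libraries could not be separated, and no model across replicates was fitted.

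Peaks were held when they overlapped by at least 1 bp. Shares carry exact Clopper-Pearson 95% intervals. RefSeq's Release 6 table gave the gene positions (17684 genes on 2L, 2R, 3L, 3R, X and 4), the assembly that dm6 names, without strand or exons. A site carries the name of the gene whose end is nearest, except in the gene lists. There a gene is named when its own end lies within 500 bp of a summit. Another gene can then be nearer, as lncRNA:CR44966 is at the RpL22 peak. The named sites were the 8 held and 8 missing wild-type peaks of highest fold, the 5 held of lowest fold, the 5 PitaZ276 peaks of highest fold without a wild-type peak, and the 5 with the largest rank difference between columns in each direction. Added to these were sites at Orc4, pita and abd-A to Abd-B, and up to 4 held and 4 missing genes of each of 10 lists. All missing ribosomal protein genes, all held oxidative phosphorylation genes, RpL37A and CG13323 are named beyond that rule, after their values were seen. The sites and lists were chosen with earlier results of these data known. No sequence was available for printing. Alternatives were another overlap rule, list thresholds, list lengths, ranking by either joined column, gene windows and gene types. Simulated peak sets served to check the code for overlaps. Python 3.11.15, numpy 2.4.6, pandas 2.3.3, scipy 1.17.1 and matplotlib 3.10.9 were used.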

Additional observations from a re-analysis of the deposited data

How the results depend on the processing

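No paired analysis was possible because each line and antibody gave 1 joined list, and for the same reason no library could be left out in turn. The share of wild-type peaks held depended on the rule, while the share held in the strongest bin stayed above that in the weakest when ranked by fold or either joined column, by summits and at an IDR value of 2. Under 50% reciprocal overlap 23.4% of wild-type peaks were held and 56.9% of PitaZ276 peaks met one, and with summits within 100 bp the shares were 30.5% and 74.0%. With −log10 IDR of at least 2, which 918 wild-type and 201 PitaZ276 peaks passed, they were 21.9% and 100%. With −log10 q of at least 10, passed by 1195 and 302 peaks, they were 24.4% and 96.7%. With a fold of at least 4, which 1195 wild-type and 380 PitaZ276 peaks passed, they were 30.4% and 96.1%. With the IDR, q and fold filters the shorter PitaZ276 list limits the first share, as nearly all of its peaks met a wild-type peak. Reciprocal overlap and the summit rule lowered both shares. Lists of equal length gave 69.3% and 70.7%. The strongest 200 by the first column gave 69.5% in both directions, and the strongest 200 by the second 79.0% and 81.0%. The second-list coordinates of PitaZ276, chosen after seeing the data, gave 38.0%.

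For the strongest bin the share held was 79.1% with summits within 100 bp and 79.3% at an IDR value of 2, and for the weakest 1.67% and 0%, or 0 of 184. Of held and other peaks, 57.5% and 26.4% lay within 200 bp of a gene end and 77.0% and 63.8% within 1000 bp. At an IDR value of 2, a setting not planned beforehand, 73.6% of held and 55.5% of other peaks lay within 500 bp of an end. Peaks not held but called in PitaZ276 FLAG were 40.1% with reciprocal overlap, 48.0% by summits and 72.9% at an IDR value of 2. The share held on X and on the autosomes, added after seeing the data, was 28.6% and 20.0% at an IDR value of 2, where the intervals overlapped, and 38.6% and 28.3% by summits. The rho of the joined columns in PitaZ276 was 0.563 at an IDR value of 2, 0.604 at shared peaks and 0.481 without the tenth of peaks highest in the second column. In Pitawt these were 0.859, 0.893 and 0.827. Depth is unknown, and a missing peak is not shown to be unbound.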
